A study of Mus musculus with 2 samples.

Results

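Chylomicrons are the fat-carrying particles that absorptive cells of the small intestine assemble and secrete after a meal. In the endoplasmic reticulum the microsomal triglyceride transfer protein loads lipid onto apolipoprotein B, smaller apolipoproteins join the particle, and vesicles with a COPII coat carry it towards the Golgi. The smaller apolipoproteins steer its later fate, since apolipoprotein C-II activates lipoprotein lipase, apolipoprotein C-III inhibits it and apolipoprotein E binds receptors that clear remnants. The genes described here are 9 of the 18944 genes listed for this study: the apolipoprotein genes Apoa1, Apoa4, Apob, Apoc2, Apoc3 and Apoe, the assembly gene Mttp, the COPII gene Sar1b and Creb3l3, which encodes a membrane-bound transcription factor that controls several apolipoprotein genes. They were chosen by symbol as apolipoproteins and genes of lipoprotein assembly and export, and all 9 were present in both tables.

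Total RNA was sequenced from cultured mouse intestinal stem cells, with 1 wild-type (WT) library of genotype Lgr5GFP-CreERT2 WT and 1 library of genotype Lgr5GFP-CreERT2 Stat6 KO, labelled as a knockout of STAT6, a transcription factor that responds to IL-4 and IL-13. Both carry the Lgr5GFP-CreERT2 allele, in which Lgr5 drives a green fluorescent protein and a Cre that can be induced, and both sources were aged 2 months. Both cultures grew in DMEM/F12 with N2, B27, EGF, N-acetylcysteine, Rspo1 and the kinase inhibitor Y27632. The knockout was made with a CRISPR/Cas lentivirus carrying Stat6 guide RNAs and a screen for deficient cells. That text stands under both samples, so the sources used here do not give the treatment of the WT culture, nor whether the KO is 1 clone or a pool. With 1 library per genotype there is no replicate error, and no test of genotype was made. Differences below are between these 2 libraries.

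Levels are FPKM, fragment numbers normalized for transcript length and library size, as deposited. The log2 ratio is log2((KO FPKM + 1)/(WT FPKM + 1)), and a gene counts as measured where either library has it at 1 FPKM or above, which 12079 genes reached. A gene is called higher or lower when its log2 ratio is at least 1 in size, a 2-fold difference on that scale. The steps of the low values corresponded to about 20000000 reads in WT and 20500000 in KO, below the average of 59000000 that the labels state for reads generated. The stem cell label was only partly matched by markers. All 13 listed stem cell markers were measured, summing to 260.4 and 157.2 FPKM (WT, KO). Among them Cd44 was highest, at 85.9 and 28.8 FPKM, and Lgr5 was among the lowest, at 1.79 and 1.88 FPKM. By comparison, the 23 enterocyte markers summed to 6372 and 19342 FPKM. The lists differ in size and in the usual level of their genes, so these sums do not measure cell content. Stat6 itself was at 41.3 and 44.2 FPKM, which does not check a CRISPR deletion of a few bases.

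Of the 9 genes, 8 had a higher FPKM in the KO library and 1, Apoe, a lower one. Apoa1, Apoa4, Apoc3 and Mttp were at least 2-fold higher, against 2.44% of all measured genes, and Apoe was at least 2-fold lower, against 2.18% of them. The other 4, Apob, Sar1b, Apoc2 and Creb3l3, were higher by less than 2-fold. The median log2 ratio of the 9 genes was 0.83, and that of all measured genes was -0.18. An FPKM higher in KO by any amount was found in 30.3% of all measured genes. Summed, the 9 genes made up 1173 FPKM (WT) and 3130 FPKM (KO), which is 0.233% and 0.631% of the library totals. In bulk RNA, more cells of a type cannot be told apart from more RNA per cell.

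**Figure D1:**
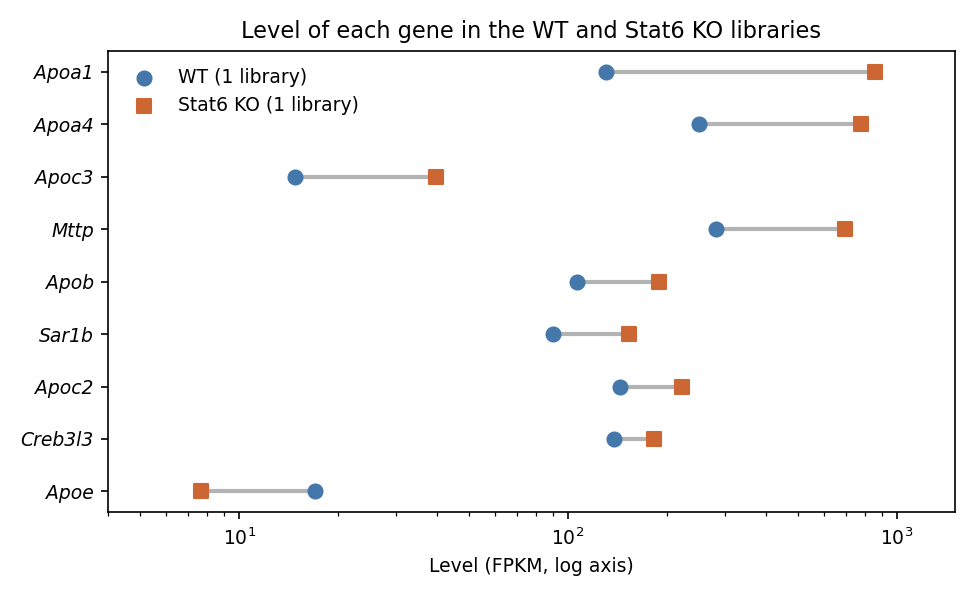
Level in FPKM (log axis) of each of the 9 genes in the WT library (circles) and the Stat6 KO library (squares), 1 library each and no error bars, ordered by log2 ratio. The KO value lies above the WT value in 8 genes and below it in Apoe, and the longest span is that of Apoa1, from 130.3 to 859.7 FPKM.

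The differences stood beside a larger shift of enterocyte markers. Of the 23 enterocyte markers 17 were at least 2-fold higher and 0 at least 2-fold lower in KO, against 2.44% and 2.18% of all measured genes. The median log2 ratio of these markers was 1.80. Fabp1, an intracellular fatty acid carrier, was the most abundant of them in WT at 2173 FPKM, followed by Rbp2, a retinol carrier, at 808 FPKM (WT) and 2305 FPKM (KO). The medians of the other epithelial marker lists were closer to 0, at -0.35 for stem cells, 0.29 for Paneth cells, 0.33 for goblet cells, -0.53 for enteroendocrine cells and -0.16 for tuft cells. Liver was checked as another tissue that makes these apolipoproteins. Its marker Alb was at 0.12 and 0.05 FPKM in WT and KO, and of 15 listed hepatocyte markers 10 were analysed here and 4 were measured, summing to 58.3 and 64.6 FPKM over those 10, of which Cps1, also an intestinal enzyme, made up 54.8 and 59.6 FPKM. The part of enterocyte content in the apolipoprotein values was not tested.

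Apoa1 (Entrez gene 11806), the main protein of high-density lipoprotein and a component of new chylomicrons, was at 130.3 FPKM (WT) and 859.7 FPKM (KO). It was the fifth of the 9 genes in WT and the first in KO. The ratio of the FPKM values was 6.60, with a 95% interval of 6.33 to 6.88 from about 2593 and 17535 estimated reads. These exact binomial intervals cover counting error only, not differences between cultures. The log2 ratio of 2.71 ranked 9 among 12079 measured genes. The 8 genes above it were all less abundant, none exceeding the 83.7 FPKM of Cyp2b10 in KO, a gene named after its values were seen. Among the 1741 measured genes with a mean of 50 FPKM or more, Apoa1 had rank 1. That cut was not planned, and Cyp2b10, with a log2 ratio of 2.75, lies below it, so the rank depends on the cut.

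Apoa4 (Entrez gene 11808), an intestinal apolipoprotein that enlarges lipid particles in the secretory pathway, was at 249.4 FPKM (WT) and 778.6 FPKM (KO). It was the second of the 9 genes in both libraries. Its ratio was 3.12 (95% counting interval 3.05 to 3.20) and its log2 ratio 1.64, at rank 81 of 12079. Apoa4 was 1.91 times as abundant as Apoa1 in WT, whereas Apoa1 was 1.10 times as abundant as Apoa4 in KO.

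Apob (Entrez gene 238055) encodes the structural protein on which each chylomicron is built, and its level did not keep step with those of Apoa1 and Apoa4. It was at 106.4 FPKM (WT) and 189.7 FPKM (KO), a ratio of 1.78 (1.76 to 1.81) and a log2 ratio of 0.83. Apoa1 was 1.23 times Apob in WT and 4.53 times Apob in KO. Apoa4 was 2.35 times Apob in WT and 4.11 times Apob in KO. Apobec1, the enzyme that edits the Apob transcript so that intestine makes the shorter protein, was at 15.7 FPKM (WT) and 14.8 FPKM (KO), a log2 ratio of -0.07 as deposited and 0.14 with TMM scaling, the trimmed mean of all log ratios set to 0.

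The pair of C apolipoproteins differed in level and in size of difference. Apoc2 (Entrez gene 11813), the activator of lipoprotein lipase, was at 144.2 FPKM (WT) and 222.9 FPKM (KO), a ratio of 1.55 (1.45 to 1.64) and a log2 ratio of 0.63. RefSeq places a coding gene that overlaps Apoc2, Gm44805, so reads of Apoc2 may be shared with it. Apoc3 (Entrez gene 11814), the inhibitor of that lipase, was at 14.8 FPKM (WT) and 39.7 FPKM (KO), a ratio of 2.69 (2.21 to 3.27) and a log2 ratio of 1.37. Apoc3 was the lowest of the 9 genes in WT, and with about 144 and 396 estimated reads its interval was among the widest. In FPKM, Apoc2 was therefore 9.76 times Apoc3 in WT and 5.61 times Apoc3 in KO. That is a ratio of transcripts and not of the 2 proteins.

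Mttp (Entrez gene 17777), the transfer protein that lipidates apolipoprotein B, was the most abundant of the 9 genes in WT at 282.8 FPKM and the third in KO at 696.6 FPKM. Its ratio was 2.46 (2.42 to 2.50) and its log2 ratio 1.30. P4hb, the disulfide isomerase that forms the other subunit of the transfer protein, was at 494.5 FPKM (WT) and 1005 FPKM (KO), a log2 ratio of 1.02.

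Sar1b (Entrez gene 66397) encodes the small GTPase that starts COPII coat assembly and is mutated in the human disorder chylomicron retention disease. It was at 90.2 FPKM (WT) and 152.9 FPKM (KO), a ratio of 1.69 (1.61 to 1.79) and a log2 ratio of 0.75. Its close paralogue Sar1a was at 44.5 and 41.1 FPKM, a log2 ratio of -0.11 as deposited and 0.11 with TMM scaling. Reads from such paralogues are divided by estimation.

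Creb3l3 (Entrez gene 208677) had the smallest ratio of the 8 higher genes, at 138 FPKM (WT) and 182.2 FPKM (KO), a ratio of 1.32 (1.28 to 1.37) and a log2 ratio of 0.40. In WT it was more abundant than Apoa1, and in KO it was the sixth of the 9. The 13 measured genes for its processing proteases, related factors and known targets outside the set had a median log2 ratio of 0.01. Of the 13, 0 were 2-fold higher and 0 were 2-fold lower, against 2.44% and 2.18% of all measured genes. The highest were Xbp1, a factor of the unfolded protein response, at 0.43, the related factor Creb3l2 at 0.37 and the desaturase Fads2 at 0.18. The lowest were the desaturase Fads1 at -0.68, the protease Mbtps2 at -0.17 and Creb3l1 at -0.10, and with TMM scaling Mbtps2 and Creb3l1 turned positive, at 0.04 and 0.12. TMM scaling moved the median of the 13 to 0.22 and left 1 of them with a negative log2 ratio, against 6 as deposited. Its hormone target Fgf21 was at 0 FPKM (WT) and 0.11 FPKM (KO), below the measured minimum.

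Apoe (Entrez gene 11816), the ligand through which remnants are taken up and a product of macrophages as well as of liver, was the only one of the 9 lower in KO. It was at 17.0 FPKM (WT) and 7.67 FPKM (KO), so that the WT level was 2.21 times the KO level and the log2 ratio was -1.05. The 95% counting interval of the KO to WT ratio was 0.37 to 0.54, from about 365 and 169 estimated reads. The 2-fold call ended under another scaling, with a log2 ratio of -0.84 under TMM scaling and -0.87 relative to the median of all genes. It also ended with a pseudocount of 5, at -0.79. Apoe was the eighth of the 9 genes in WT and last in KO.

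Macrophage markers were lower beside it. Of the 20 markers listed, 19 were analysed here and 14 were measured. Of the 14, 12 had a lower FPKM in KO and 2 a higher one, where 30.3% of all measured genes were higher. At least 2-fold lower was 1 of the 14, against 2.18% of all measured genes. The median log2 ratio was -0.64, against -0.18 for all measured genes. With TMM scaling it was -0.48, against 0.02. The 19 summed to 76.1 FPKM (WT) and 46.9 FPKM (KO). Cd68, a lysosomal protein, and Mrc1, the mannose receptor, were the most abundant in WT, at 17.7 and 16.2 FPKM, with log2 ratios of -1.40 and 0.03. Marco was at 0 in both libraries and Trem2 at 0.05 and 0 FPKM. The complement genes C1qa, C1qb and C1qc were at 1.68, 3.04 and 1.62 FPKM in WT and 1.51, 1.78 and 1.06 FPKM in KO. Glial markers, another possible source of Apoe, summed to 25.8 and 21.2 FPKM over 7 genes, of which Mbp made up 21.7 and 17.2 FPKM, and Gfap was at 0.02 and 0 FPKM. Stromal markers summed to 71.4 and 32.8 FPKM over 12 genes, of which Vim made up 59.8 and 25.6 FPKM. The part of these cells in the Apoe value was not tested.

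**Figure D2:**
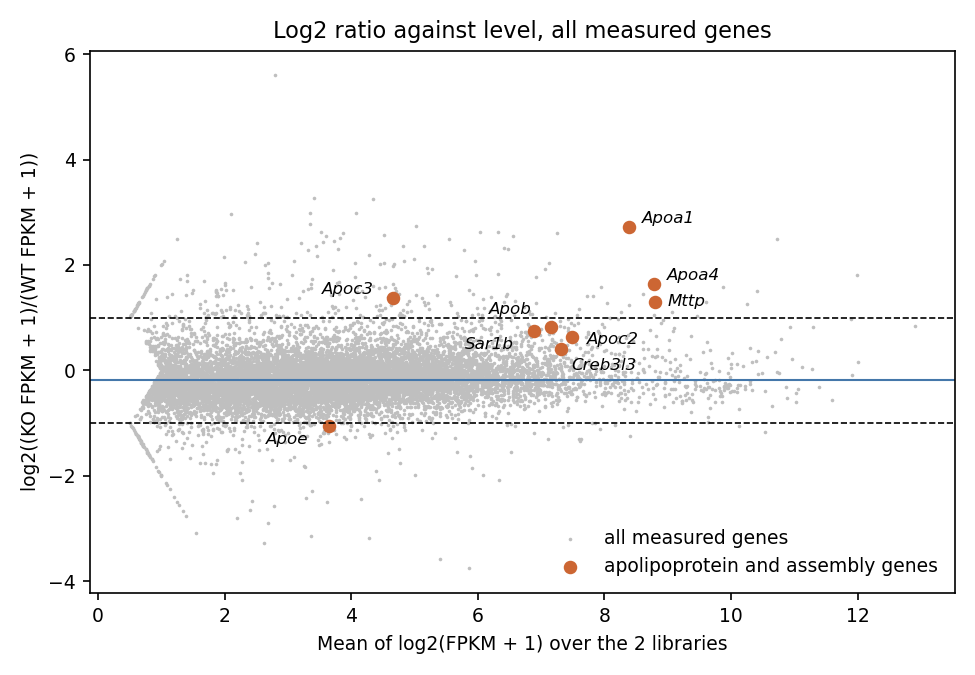
Log2 ratio of KO to WT against the mean of log2(FPKM + 1) over both libraries, for 12079 measured genes (grey points) and the 9 apolipoprotein and assembly genes (orange, named). Dashed lines mark 2-fold and the blue line the median of all measured genes, -0.18. Apoa1 lies above the other genes of similar level, while Apoe lies just past the lower 2-fold line.

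The 9 genes spanned 19.2-fold in level in WT, from Apoc3 to Mttp, and 112-fold in KO, from Apoe to Apoa1. In WT the order by FPKM was Mttp, Apoa4, Apoc2, Creb3l3, Apoa1, Apob, Sar1b, Apoe and Apoc3. In KO it was Apoa1, Apoa4, Mttp, Apoc2, Apob, Creb3l3, Sar1b, Apoc3 and Apoe. Neighbours in these orders have no replicate spread to set their distance against. In FPKM gained, Apoa1 ranked 11, Apoa4 13 and Mttp 17 among all 18944 genes, with differences of 729, 529 and 414 FPKM.

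For 3 of the genes the nearest others in log2 ratio were sought among measured genes whose mean FPKM was within 2-fold, a likeness over 2 libraries only. Predicted models, clone names and pseudogenes were left out. Of 233 such genes none came within 1 of Apoa1, and the nearest were Apoa4, the glucuronosyltransferase Ugt2b34 and Clca4b, at distances of 1.07, 1.13 and 1.26. For Apoa4 they were Ugt2b34, Clca4b and Mttp, at 0.05, 0.19 and 0.34. Apoe had 4381 genes in its level range, and the nearest, Fryl, Snord96a and Shf, lay within 0.01 of it.

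Apoa1, Apoc3 and Apoa4 lie side by side in the genome, and Apoe and Apoc2 lie close together in another cluster. Gene order was taken from RefSeq annotation of GRCm38.p6, a later build than the mm9 used by the submitters, for order alone. On chromosome 9, Apoa1, Apoc3 and Apoa4 were all at least 2-fold higher in KO, while of 11 measured flanking genes 0 were 2-fold higher and 0 were 2-fold lower. Over all measured genes those shares were 2.44% and 2.18%. Flanking genes ranged from -0.55 for Zpr1 to 0.13 for Sik3, a kinase gene next to Apoa1 in this order, with a median of -0.07, or 0.16 with TMM scaling. Cep164 and Pafah1b2 followed at the low end, at -0.46 and -0.40, and Tagln and Cadm1 at the high end, at 0.05 and 0.04. Apoa5, the fourth apolipoprotein gene of that cluster, was at 0.02 FPKM in both libraries, below the measured minimum.

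On chromosome 7 the cluster split, with Apoc2 at a log2 ratio of 0.63 and Apoe at -1.05. Between them Apoc4 was at 0.31 and 0.56 FPKM, below the minimum, and Apoc1 is not analysed here. Of 10 measured flanking genes, 10 had a lower FPKM in KO as deposited and 6 with TMM scaling. As deposited only 30.3% of all measured genes had a higher FPKM in KO. The median of the flanking genes was -0.26, near the -0.18 of all measured genes, and -0.04 with TMM scaling, against 0.02. As deposited 1 flanking gene was at least 2-fold lower, against 2.18% of all measured genes. That gene was Bcam, an adhesion molecule, at 10.3 FPKM (WT) and 4.04 FPKM (KO), -1.17 on the log2 scale, and its 2-fold call also ended with TMM scaling, at -0.97. Relb, an NF-kB subunit, was at -0.62 and Zfp296, a zinc finger protein, at -0.36. The flanking genes nearest to 0 were Gemin7 at -0.10, Cblc at -0.12 and Pvrl2, a nectin adhesion molecule, at -0.18, which turned positive with TMM scaling, at 0.12, 0.11 and 0.05.

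**Figure D3:**
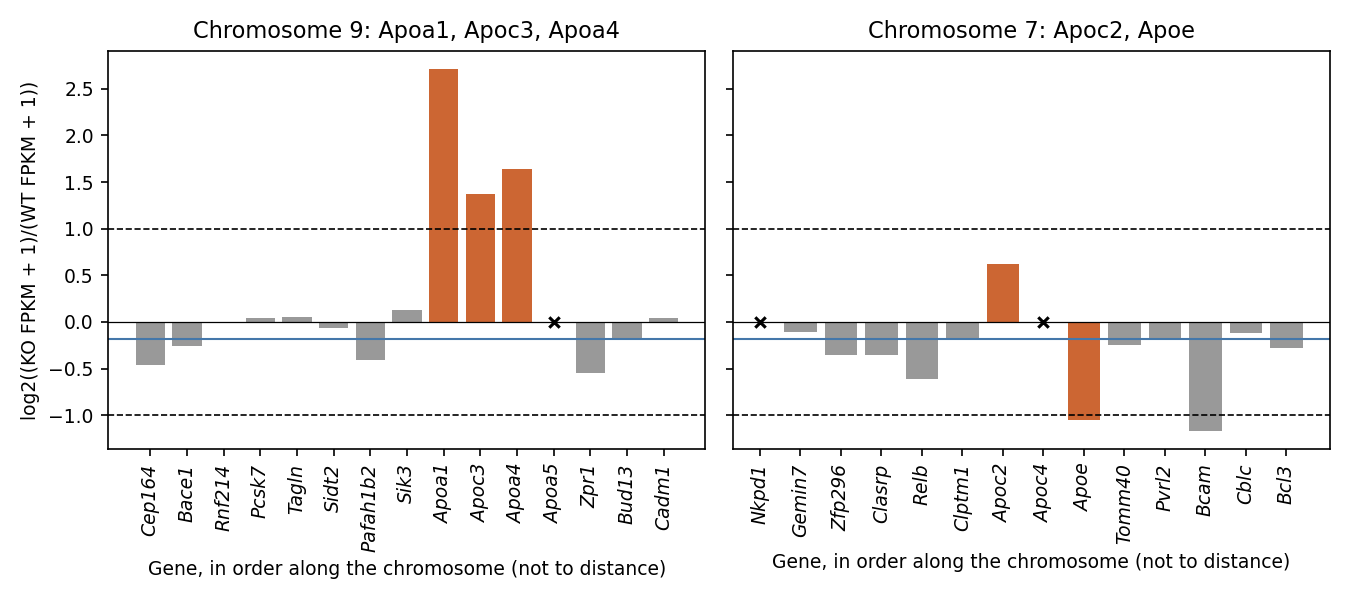
Log2 ratio of KO to WT for genes in their order along chromosome 9 (left) and chromosome 7 (right), not to distance. Orange bars are the described genes, grey bars flanking genes, crosses genes below the measured minimum, dashed lines 2-fold and the blue line the median of all measured genes. The 3 orange bars on the left, 1.37 to 2.71, stand beside flanking genes between -0.55 and 0.13, and the orange bars on the right point in opposite directions.

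The DNA just upstream of the starts was compared because genes of 1 cluster differed in direction or size. RefSeq promoter windows (GRCm38.p6) matched 8 of the 9 genes, with 6 of them at 1 start, Apoe at 3 and Creb3l3 at 2; Apoc3 had no entry. The 250 bases before each start were searched on both strands for TTCNNNNGAA (STAT6), CAAAGTCCA and CAAAGGTCA (HNF4), GTTAATNATTAAC (HNF1), TGACGTCA and its part TGACG (cAMP response element, bound by CREB family factors), for the TATA box TATAAA, for GATA factors AGATAA and for CDX factors TTTATG. Below are the windows of the 3 genes with the highest log2 ratios that had an entry, then Apob, the scaffold gene, and Apoe, the gene that was lower, each written 5' to 3' on its own strand with matches in capitals.

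Apoa1 (chr9:46228380-46228629, plus strand): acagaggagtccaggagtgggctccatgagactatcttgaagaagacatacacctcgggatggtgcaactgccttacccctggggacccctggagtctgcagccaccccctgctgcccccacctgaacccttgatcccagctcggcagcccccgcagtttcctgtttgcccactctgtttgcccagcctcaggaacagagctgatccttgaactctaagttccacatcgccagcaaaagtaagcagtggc

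Apoa4 (chr9:46240594-46240843, plus strand): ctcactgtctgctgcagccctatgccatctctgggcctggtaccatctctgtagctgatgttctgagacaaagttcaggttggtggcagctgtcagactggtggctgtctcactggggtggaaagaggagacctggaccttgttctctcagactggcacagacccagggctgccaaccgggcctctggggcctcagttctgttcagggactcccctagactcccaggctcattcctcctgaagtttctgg

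Mttp (chr3:138143419-138143668, minus strand): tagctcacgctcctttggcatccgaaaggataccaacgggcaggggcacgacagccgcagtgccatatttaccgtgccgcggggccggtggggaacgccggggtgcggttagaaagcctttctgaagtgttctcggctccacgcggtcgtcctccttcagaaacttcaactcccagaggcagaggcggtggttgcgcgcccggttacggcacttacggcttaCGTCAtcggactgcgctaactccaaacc

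Apob (chr12:7977427-7977676, plus strand): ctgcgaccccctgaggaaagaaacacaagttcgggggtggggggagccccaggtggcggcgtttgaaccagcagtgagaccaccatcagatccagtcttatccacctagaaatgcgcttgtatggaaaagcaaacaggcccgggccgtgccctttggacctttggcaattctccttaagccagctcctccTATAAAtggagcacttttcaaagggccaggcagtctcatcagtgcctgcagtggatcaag

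Apoe, first listed start (chr7:19699189-19699438, minus strand): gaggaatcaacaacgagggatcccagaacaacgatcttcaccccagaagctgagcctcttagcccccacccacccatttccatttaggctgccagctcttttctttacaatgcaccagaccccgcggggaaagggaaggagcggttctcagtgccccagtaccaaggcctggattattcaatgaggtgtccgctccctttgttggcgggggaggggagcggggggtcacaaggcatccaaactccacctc

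The windows of Apoa1, Apoa4 and the first Apoe start held none of these letters. Mttp held TGACG, on the reverse strand as CGTCA, 28 to 24 bases before its start, and the same letters were found in Apoc2 and in 1 Creb3l3 window, so in 3 of the 11 windows of these genes against 17.8% of all 32851 windows. The Apob window held TATAAA 60 to 55 bases before its start, and another Apoe start also held it, 2 of 11 windows against 12.4% of all windows. TTCNNNNGAA was in 0 of 11 windows and in 5.85% of all windows. CAAAGTCCA was in 0.384% of windows, CAAAGGTCA in 0.426%, TGACGTCA in 1.55% and TTTATG in 10.8%, each in 0 of the 11, and AGATAA was in 1 of 11, a Creb3l3 window, against 9.99% of all windows. GTTAATNATTAAC was in 3 of 32851 windows and in 0 of the 11. Such matches are letters in a window and not binding sites.

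The wider pathway was read from a list of 39 genes for apolipoprotein B editing, lipid loading and prechylomicron transport, of which 38 were measured. At least 2-fold higher were 5 of 38, against 2.44% of all measured genes, and 0 were 2-fold lower, against 2.18%. The median log2 ratio of the list was 0.38. The fatty acid binding proteins Fabp2 and Fabp1 led it, at 2.48 and 1.80, both also counted among the enterocyte markers. Acsl5, which activates fatty acids, was at 1.25, Dgat1, which makes triglyceride, at 1.07, and P4hb at 1.02. Cd36, a fatty acid transporter, was lowest at 4.37 FPKM (WT) and 2.14 FPKM (KO), or -0.77 as a log2 ratio, followed by the transcription factor Plagl2 (-0.50) and Preb, the exchange factor for Sar1 proteins (-0.29). With the TMM factor 9 of 38 were at least 2-fold higher, against 3.56% of all measured genes.

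COPII genes exist as paralogues, and their values are given in full because Sar1a and Sar1b differed; this set was chosen after values were seen. Sec23a had a log2 ratio of 0.66 and Sec23b of -0.10. Sec24a and Sec24d, cargo-binding coat subunits, had 0.69 and 0.79, whereas Sec24b and Sec24c had -0.06 and 0.12. Sec31a had 0.42 and Sec31b was below the minimum. Sec16b had 0.69 and Sec16a 0.02. Of the large-cargo receptors, Mia2 had 0.57, Mia3 0.09 and Ctage5, which shares a locus with Mia2, -0.14. None of these COPII genes passed 2-fold as deposited, where 2.44% of all measured genes were higher and 2.18% lower. With TMM scaling Sar1a, Sec23b, Sec24b and Ctage5 turned slightly positive, at 0.11, 0.12, 0.15 and 0.09. Under that scaling Sec24d passed 2-fold at 1.02, where 3.56% of all measured genes were at least 2-fold higher.

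Transcription factors and cofactors known to act on apolipoprotein genes had a median log2 ratio of 0.10. Of 30 measured, 3 were at least 2-fold higher and 0 lower, against 2.44% and 2.18% of all measured genes. Among the 3 were the lipid sensor Ppara (1.14) and the coactivator Ppargc1a (1.05), both below 10 FPKM in both libraries. The lowest were the pioneer factors Foxa1 (-0.53) and Foxa3 (-0.49) and the repressor Nr2f2 (-0.28). With a pseudocount of 5, 0 of 30 were called, against 1.19% of all measured genes higher and 0.522% lower.

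Genes that act on lipoproteins after secretion had a median log2 ratio of 0.08. Of 21 measured, 1 was at least 2-fold higher and 0 lower, against 2.44% and 2.18% of all measured genes. That gene was Cubn, an endocytic receptor that binds apolipoprotein A-I, at 1.17 FPKM (WT) and 5.12 FPKM (KO), a log2 ratio of 1.5, followed by the lysosomal lipase Lipa at 0.83 and the receptor Lrp1 at 0.50. Cubn was within 2-fold with a pseudocount of 5. With TMM scaling 2 of 21, Cubn and Lipa, were at least 2-fold higher, against 3.56% of all measured genes. With a pseudocount of 0.1, 1 of 21, Lrp8, was at least 2-fold lower, against 5.0% of all measured genes. Lrp8, an apolipoprotein E receptor, was lowest at -0.84, and the lipase Lipg was also low at -0.53.

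Of 25 other apolipoprotein, related or merely similarly named genes listed (Apopt1 among the latter), 24 were analysed here and 10 were measured. None of the 10 was 2-fold higher under any setting tried. As deposited, with a pseudocount of 1, 0 were 2-fold lower, against 2.18% of all measured genes. With a pseudocount of 0.1 there were 2, against 5.0% of all measured genes. These were Saa1 and Apol7c, at KO to WT ratios of 0.27 and 0.31 in FPKM. The log2 ratio was negative in 8 of 10 as deposited and in 6 of 10 with TMM scaling, and its median was -0.31 and -0.10. All measured genes had medians of -0.18 and 0.02, and 30.3% of them had a higher FPKM in KO as deposited. The highest were Apol9a (0.26), Apoo (0.25) and Apobec1 (-0.07, or 0.14 with TMM scaling), and the lowest Saa1 (-0.96), Clu, also known as apolipoprotein J (-0.89), and Apol7c (-0.79). Apoa2, a high-density lipoprotein protein made mainly by liver, was at 0.75 FPKM (WT) and 0.53 FPKM (KO), and Apoh at 0.13 and 0.34 FPKM. Apol genes have close copies, so their single values are uncertain.

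**Figure D4:**
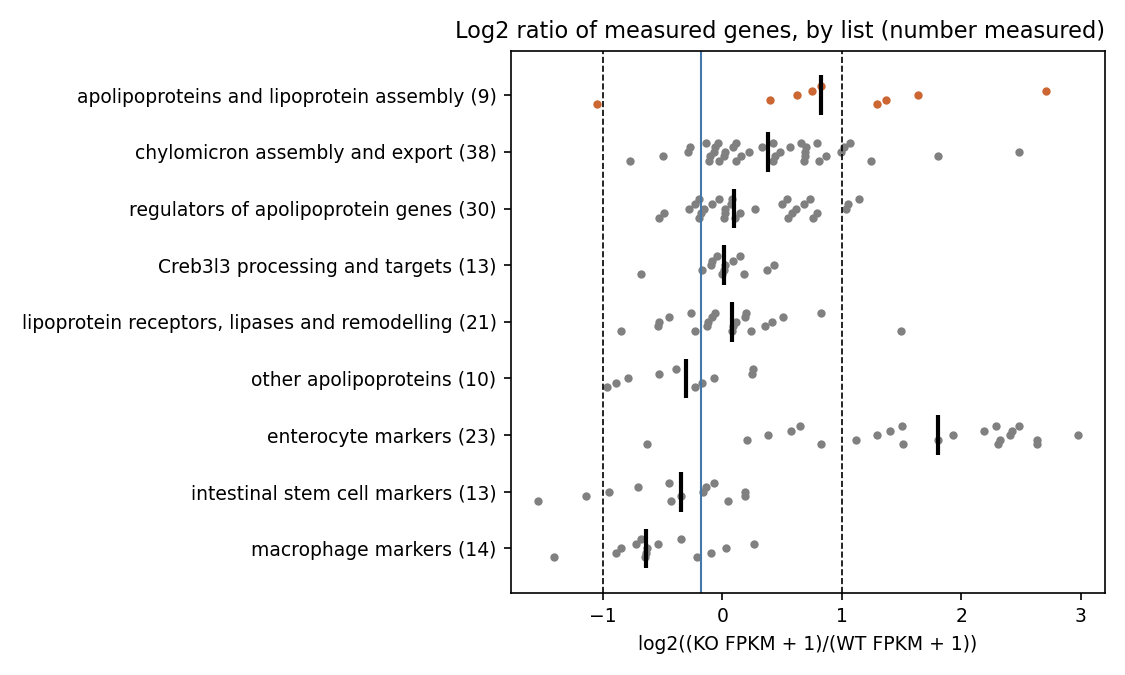
Log2 ratio of KO to WT for each measured gene (points, spread vertically for visibility) in the described genes (orange) and 8 gene lists (grey), with list medians as black bars, 2-fold as dashed lines and the median of all measured genes as the blue line. The described genes have a median of 0.83, between that of chylomicron assembly and export genes (0.38) and that of enterocyte markers (1.80), with Apoe as the lone point left of -1 among them.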

How the data were processed

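RNA sequencing of 1 WT and 1 Stat6 KO culture was deposited as 2 tables of FPKM per gene, per the file headers, rounded by the authors. The submitters' processing notes name mm9, RSEM, HISAT and Bowtie2. Versions, roles, annotation and filters are not given in the sources read. FPKM is relative to a library total, so abundant genes that differ move all others.

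Tables were joined on Entrez gene number. The 9 genes and the gene lists were chosen with earlier results of these data known. From each pathway list the 3 highest and 3 lowest log2 ratios were named, and from marker lists the 2 highest in WT and those at 0 in both libraries for the lists described; other genes named for their role or after their values were seen are an exception, and 2 that the rule names are not reported here. Reads were estimated from the steps of low FPKM values in 4617 genes with 1 GENCODE M21 transcript, with 40 bases taken off each length. Among values standing for at most 5 reads, 62.2% of 156 (WT) and 64.5% of 124 (KO) came out whole to 0.1 read, where 20% of evenly spread values would; depth and the 40 bases were chosen to raise these shares. Estimated reads use median lengths of coding transcripts. The log2 ratios, 2-fold calls and TMM scaling were tested on simulated data. Read estimates, counting intervals and the promoter search were not part of that test. Python 3.11.15 with numpy 2.4.6, pandas 2.3.3, scipy 1.17.1 and matplotlib 3.10.9 was used. The alternatives were pseudocounts of 0.1 and 5, 3 other scalings, 2 other minimum levels and 2 other thresholds. No sample was left out, and no test of genotype, adjusted p-value or count model was used.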

Additional observations from a re-analysis of the deposited data

How the results depend on the processing

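The direction of all 9 log2 ratios, 8 positive and Apoe negative, was the same under 7 alternatives that give a ratio. Other pseudocounts and minimum levels cannot change a direction, so only the 3 other scalings could have done so. Apoa1 ranked above Apoa4 and Apoe last in each of the 7. A scaling moves all ratios by nearly the same amount, so it could hardly change that order. The ranges were 2.68 to 2.94 for Apoa1, 1.62 to 1.87 for Apoa4, 1.18 to 1.59 for Apoc3, 1.29 to 1.53 for Mttp and -1.13 to -0.79 for Apoe. The median log2 ratio of the genes was 0.81 with a pseudocount of 5, 1.06 with TMM scaling, 1.01 with the median of all genes set to 0 and 0.91 with a total that leaves out the 20 most abundant genes of each library. TMM scaling moved the median of all measured genes from -0.18 to 0.02. Those settings change the scale by construction, and the distance of the median from that of all measured genes stayed between 0.92 and 1.04.

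The count of genes at least 2-fold higher was 4 or 5 under every scaling, pseudocount and minimum level tried, the fifth being Apob. In those settings 1.19% to 3.56% of all measured genes were at least 2-fold higher. It was 7 at a 1.5-fold threshold, against 5.7% of all measured genes, and 1 at a 4-fold threshold, against 0.422%. The count of genes at least 2-fold lower was 0 with a pseudocount of 5, with TMM scaling, with the median set to 0, with the total that leaves out abundant genes, and at 4-fold. The shares of all measured genes called lower in those settings were 0.522%, 1.35%, 1.32%, 1.83% and 0.224%, in that order. The split of all calls, 52.9% higher and 47.1% lower, became 72.5% and 27.5% with TMM scaling and 38.2% and 61.8% with a pseudocount of 0.1; the numbers were 295 and 263, then 430 and 163, then 374 and 604. Among 126 recomputed counts of pathway lists, 104 were within 1.5 times or equal and 22 moved further. Most of the 104 were counts of 0 that stayed at 0, so they say little about stability. Of 63 recomputed log2 ratios of the described genes, 42 were classed as unchanged and 21 as moved. Of 25 recomputed values for their median and their 2-fold counts, 14 were classed as unchanged and 11 as moved. A ratio was unchanged if it moved by no more than its counting interval extends to either side, on average. The median was held against the interval of Apob, and counts were classed like the pathway counts. The 2 other minimum levels leave the values of these genes as they are, so those classes were fixed in advance. No paired analysis was possible because each genotype has 1 library, and for the same reason no library could be left out. Depth limits Apoc3 and Apoe most, at no more than 396 estimated reads.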
